A study of Mus musculus with 3 samples.

Results

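The cells described here are mouse dorsal root ganglion (DRG) macrophages that carried Ccr2 RNA or few transcripts of the resident-type genes Mrc1, Pf4, F13a1 and Stab1. They were chosen by measured counts. A kept cell was a macrophage when at least 3 of the 6 genes Csf1r, C1qa, C1qb, Aif1, Cd68 and Mpeg1 had a unique molecular identifier (UMI, a counted RNA molecule) and markers of endothelial cells, myelinating Schwann cells, neurons and neutrophils were at or under fixed limits. Macrophages entered when Ccr2 had at least 1 UMI or when the 4 resident-type genes summed to under 3 UMIs. This gave 196 of 551 macrophages and of 9662 kept cells. Because 183 of the 196 had a Ccr2 UMI, they are called Ccr2-rule cells below, and the remaining 355 are called other macrophages.

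The study profiled whole L3 and L4 DRGs by droplet-based 3′ single-cell RNA sequencing, before and after spared nerve injury (SNI), a model of neuropathic pain in which part of the sciatic nerve is cut. All animals were male C57BL/6J mice aged 13 weeks. The naïve group was untreated, and the SNI day 7 and SNI day 14 groups had the injury in both hindlegs. Each group was 1 library of 8 DRGs pooled from 2 mice, dissociated with collagenase and dispase, so no difference between groups has a replicate check, and differences between animals and between treatments cannot be told apart.

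The naïve, SNI day 7 and SNI day 14 libraries held 3748, 3281 and 4908 barcodes with 23107376, 22343246 and 36550911 UMIs. Of these, 3152, 2682 and 3828 barcodes held 500 or more genes with no more than 20% of UMIs from mitochondrial genes. The Ccr2-rule cells numbered 23, 80 and 93 and together held 84304, 482506 and 545977 UMIs. A single UMI in their summed profile was worth 11.9, 2.07 and 1.83 UMIs per 1000000 UMIs (CPM), and a gene with no UMI could have been as high as 35.6, 6.22 and 5.49 CPM (3 counts). The naïve profile was the shallowest. All intervals are 95% and cover counting error only (exact Poisson for sums, Clopper-Pearson for shares, exact conditional for ratios).

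Macrophages clear debris, present antigen and secrete signals to neighbouring neurons and glia. Ccr2 is the receptor for monocyte chemoattractant chemokines, and it marks monocytes, cells recently derived from them, and many dendritic cells. Resident macrophages of nerve and ganglion usually carry little Ccr2 and more of the mannose receptor Mrc1, and MHC class II molecules on either kind of cell show peptides to CD4 T cells.

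Ccr2-rule cells were a larger share of all cells in the injured libraries, and so were macrophages as a whole, while the division within macrophages was similar. They made up 0.730% (0.463 to 1.09) of kept naïve cells, 2.98% (2.37 to 3.70) at day 7 and 2.43% (1.97 to 2.97) at day 14. All macrophages were 2.22% (1.74 to 2.80), 7.90% (6.91 to 8.99) and 7.03% (6.24 to 7.88) of cells. Among macrophages, the Ccr2-rule share was 32.9% (22.1 to 45.1), 37.7% (31.2 to 44.6) and 34.6% (28.9 to 40.6), and these intervals overlapped. Median depth differed, at 3292, 5397 and 4795 UMIs per Ccr2-rule cell and 2044, 3867.5 and 3482.5 per other macrophage. When every macrophage was thinned to 2000 UMIs (28, 35 and 50 shallower ones left out), the share was 35.5%, 37.2% and 38.9%, against 38.1%, 40.1% and 36.5% in the same cells unthinned.

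The way cells entered differed between libraries. Cells with a Ccr2 UMI and a resident-type sum of 3 or more were 9 of 23 naïve (39.1%, 19.7 to 61.5), 63 of 80 at day 7 (78.8%, 68.2 to 87.1) and 61 of 93 at day 14 (65.6%, 55.0 to 75.1). Cells with a Ccr2 UMI and a sum under 3 were 12, 14 and 24. The remaining 2, 3 and 8 entered by the low resident-type sum alone. Of the Ccr2-positive cells, 21 held a single Ccr2 UMI and 162 held 2 or more, with medians of 4, 7 and 8 Ccr2 UMIs per Ccr2-rule cell. In cells with at least 2 UMIs of the myelin genes Mag and Prx and under 3 of the macrophage genes, called Mag or Prx cells, which should lack Ccr2, a Ccr2 UMI was found in 1 of 1399, 10 of 1199 and 7 of 1694 (0.0715%, 0.834% and 0.413%) at median depths of 2685, 3719 and 3821.5 UMIs. Near the threshold, macrophages without Ccr2 had resident-type sums of 0, 1 and 2 in 3, 5 and 5 cells, just inside the rule, and sums of 3, 4 and 5 in 6, 6 and 10 cells, just outside it. The macrophage threshold was met with exactly 3 genes in 31 Ccr2-rule cells and with all 6 in 81.

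**Figure D1:**
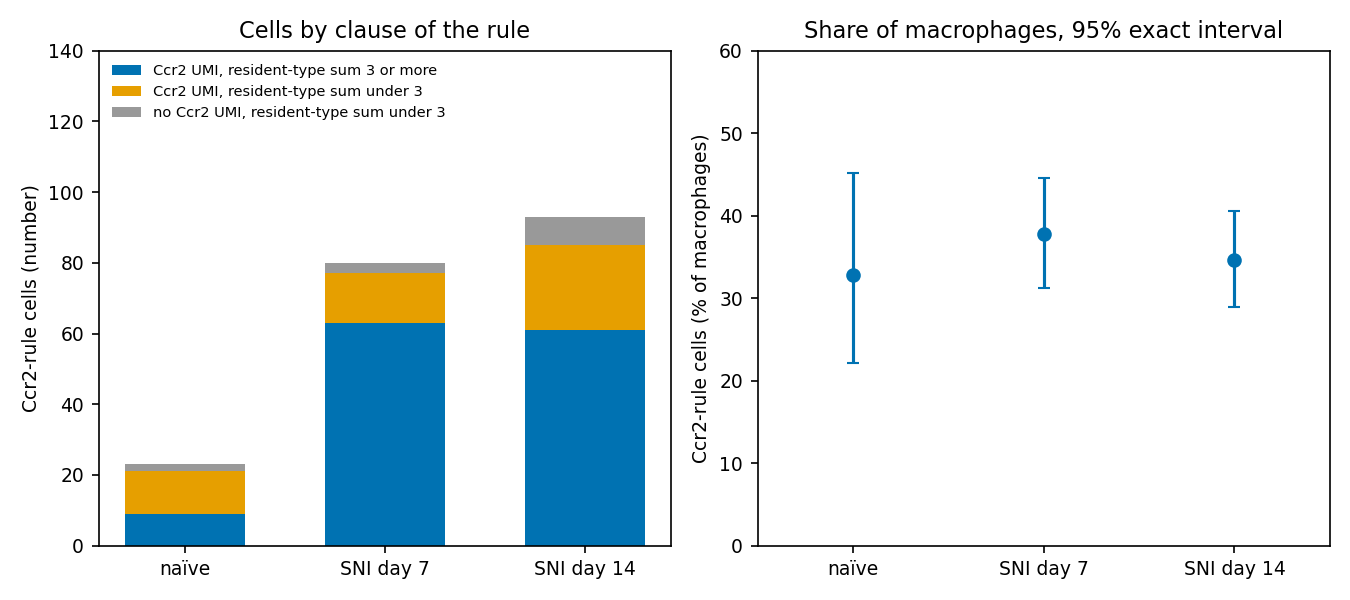
Left, number of Ccr2-rule cells in each library, stacked by how they entered (bars start at 0). Right, their share of all macrophages in percent with exact 95% binomial intervals; shares were 32.9%, 37.7% and 34.6%, while cells with both Ccr2 and 3 or more resident-type UMIs went from 9 of 23 naïve to 63 of 80 at day 7.

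Libraries shared few cell barcodes (1 between naïve and day 7, 6 between naïve and day 14, 2 between day 7 and day 14), and no shared barcode was a Ccr2-rule cell. The Scrublet doublet caller marked 29, 32 and 29 kept cells, of which 0, 1 and 2 were Ccr2-rule cells. It marked few cells, and called cells were kept. The marker limits of the rule do not cover fibroblast or satellite glial genes, and how many doublets remained was not tested.

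The name under which these cells were proposed, Ccr2 and Mrc1-low macrophages, held in part. Only 63 of 196 cells (32.1%, 25.7 to 39.2) had a resident-type sum under 3, and 145 of 196 (74.0%, 67.2 to 80.0) had an Mrc1 UMI. Mrc1 nevertheless summed to 664, 761 and 540.3 CPM against 2157, 2791 and 1803 CPM in other macrophages. Stab1, a scavenger receptor, was at 676, 794 and 452 CPM against 2998, 2839 and 2320.1 CPM. Pf4, a chemokine of platelets and resident macrophages, was at 901, 601 and 185 CPM against 2431, 2058 and 1276 CPM. F13a1, a transglutaminase subunit, was at 225, 263 and 141 CPM against 923, 1572 and 1077 CPM. These genes helped to choose the cells, so their levels are a description. Ccr2, used in the same way, was at 1151, 1505 and 1612 CPM and absent from other macrophages by construction.

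Of the remaining markers proposed for these cells, the MHC class II genes H2-Aa and H2-Ab1 and the pore-forming protein gene Mpeg1 were higher than in other macrophages, and Trem2 was not. H2-Aa was at 13119, 8647 and 11273 CPM, against 9085, 3442 and 6208 CPM in other macrophages, with a UMI in 23 of 23, 71 of 80 and 91 of 93 cells. In the Mag or Prx cells, H2-Aa was found in 0.929%, 3.09% and 6.14%. H2-Ab1 was at 10438, 6827 and 8733 CPM against 5768, 2280.5 and 4383 CPM. Mpeg1, which also counted toward the macrophage rule, was at 818, 864 and 974 CPM against 466, 475 and 729.8 CPM. Trem2, a lipid-sensing receptor, was at 142, 400.0 and 231 CPM against 229, 405 and 344 CPM. Its UMIs were in 34.8%, 63.8% and 48.4% of Ccr2-rule cells and in 0%, 0.5% and 0.118% of Mag or Prx cells.

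The macrophage genes of the rule were detected throughout, most of them at lower levels than in other macrophages. C1qa and C1qb encode chains of complement C1q. C1qa was at 2705, 3503 and 2449 CPM against 6106, 6044 and 5051 CPM, and C1qb was at 2432, 3001 and 2028 CPM. Csf1r, the receptor for the macrophage growth factor Csf1, was at 901, 1652 and 1064 CPM against 2541, 2599.9 and 2407 CPM. The cytoskeletal gene Aif1 was at 308, 504 and 286 CPM, and the lysosomal membrane gene Cd68 was at 356, 346 and 319 CPM.

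Lists of genes typical of T and NK cells, neutrophils and mast cells were low, and the B cell list rested mainly on 1 gene. Of 12 T and NK cell genes, 1, 2 and 2 had a UMI, summing to 23.7, 18.7 and 18.3 CPM, mostly the cytokine receptor gene Il7r, while Cd3d, Cd3e, Cd3g, Trac and Trbc2 were at 0. Of 7 B cell genes, 2, 3 and 3 had a UMI, summing to 249, 292 and 293 CPM, against 439, 354 and 457 CPM in other macrophages and 2.36, 1.26 and 2.56 CPM in Mag or Prx cells, with a UMI in 11, 57 and 62 Ccr2-rule cells. Nearly all of that was Ighm, the IgM heavy chain gene, at 225, 265 and 266 CPM, and Cd79a, Ms4a1 and Igkc were at 0. Of 10 neutrophil genes, 1, 5 and 4 had a UMI, summing to 83.0, 72.5 and 82.4 CPM with the G-CSF receptor gene Csf3r most abundant. Of 6 mast cell genes, 1, 2 and 1 had a UMI, summing to 11.9, 16.6 and 40.3 CPM with Kit most abundant. None of these lists had a compared gene past 2-fold between libraries.

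Classical monocyte genes were sparse. Of 10, 4, 8 and 6 had a UMI, summing to 273, 176 and 333 CPM against 45.7, 75.2 and 63.3 CPM in other macrophages. Ly6c2, the defining surface antigen gene of mouse classical monocytes, had 0, 1 and 2 UMIs. Plac8 led the naïve sum at 154 CPM, but 11 of its 13 UMIs lay in 1 cell. A single cell held 12 of 23 naïve and 39 of 85 day 7 UMIs of the list, and without the highest cell of each library the sums were 135, 96.5 and 278 CPM. The extracellular matrix gene Fn1 led the others, at 35.6, 64.2 and 189 CPM, with a UMI in 4.35%, 8.75% and 10.8% of Ccr2-rule cells against 0.5%, 1.08% and 1.48% of Mag or Prx cells. At least 2 of the 10 genes were found in 3, 6 and 6 Ccr2-rule cells. The 8 nonclassical monocyte genes (3, 5 and 7 with a UMI) summed to 130.5, 85.0 and 97.1 CPM, led by the integrin gene Itgal. Each monocyte list had at most 1 gene compared between libraries, and none passed 2-fold.

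RNA of glia and fibroblasts did move with the libraries. Of 8 satellite glial cell genes, 5, 8 and 8 had a UMI, summing to 297 (192 to 438), 1171 (1076 to 1272) and 2608 (2474 to 2747) CPM, against 384, 339.9 and 2921 CPM in other macrophages. The fatty acid binding protein gene Fabp7 was at 83.0, 392 and 854 CPM. A single cell held 245 of 565 of these UMIs at day 7 and 437 of 1424 at day 14, and without it the sums were 684 and 1852 CPM. Of 8 Schwann cell genes, 5, 6 and 8 had a UMI, summing to 368, 603 and 632 CPM. Their part in the changes between libraries was not tested.

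The 8 fibroblast genes (8, 7 and 8 with a UMI) summed to 3191, 232 and 4539 CPM, led by the lipocalin gene Apod at 2277, 108 and 2694 CPM. A single cell held most of this in the naïve and day 14 libraries (218 of 269 and 1468 of 2478 UMIs of the list) but not at day 7 (27 of 112). Leaving out the highest cell of each library, the sums were 631, 178 and 1885 CPM. At least 20 satellite glial or fibroblast UMIs were found in 2, 4 and 6 Ccr2-rule cells, of which 1, 1 and 4 lacked Ccr2. Of 10 sensory neuron genes, 7, 9 and 10 had a UMI, summing to 119, 159.6 and 165 CPM, and of 9 endothelial and mural genes, 2, 5 and 8, summing to 35.6, 22.8 and 27.5 CPM.

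The Ccr2-rule cells were not uniform, and a group of them carried dendritic cell genes. Conventional dendritic cells take up antigen and carry it to lymph nodes, and 10 genes typical of them summed to 1506 (1256 to 1792), 931 (846 to 1021) and 747 (677 to 823) CPM against 192, 64.9 and 67.3 CPM in other macrophages. The highest cell of each library held 33 of 127, 135 of 449 and 44 of 408 UMIs of the list. Without it the sums were 1293, 687 and 684 CPM, so the injured libraries were then alike. Of the 10, 7, 7 and 9 had a UMI, and Ccr7 was at 0 in every library. At least 2 of them were found in 4 of 23 (17.4%, 4.95 to 38.8), 10 of 80 (12.5%, 6.16 to 21.8) and 22 of 93 (23.7%, 15.5 to 33.6) Ccr2-rule cells, but in 0 of 47, 1 of 132 and 3 of 176 other macrophages. Thinned to 2000 UMIs, the shares were 14.7%, 6.69% and 14.6%. These are shares of the 16, 71 and 80 Ccr2-rule cells with at least 2000 UMIs, so their base differs from that of the unthinned shares. Median depth of these 36 cells was 9427.5 UMIs against 4161 for the 160 Ccr2-rule cells with fewer dendritic cell genes, and detection of such genes depends on depth.

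The 36 cells carried little of the complement genes by which macrophages were chosen. Ccr2, a gene of the rule, was at 1530.5 and 1530.4 CPM with libraries pooled, with a UMI in 35 of 36 and 148 of 160 cells, but at 827 and 1331 CPM in the naïve library. C1qa was at 319 CPM in the 36 cells and 4109 CPM in the 160, with a UMI in 10 of 36 and 158 of 160. Csf1r was at 331 and 1749.9 CPM, and the pan-macrophage adhesion receptor gene Adgre1 was at 69.04 and 668 CPM. Apoe, which carries lipids, was at 1447 and 24627 CPM, and Trem2 was at 17.3 and 425 CPM. Mrc1, a gene of the rule, was at 230.1 and 834 CPM.

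With libraries pooled, genes of dendritic cell development and function not used for the split ran the other way, though not all did so in each library. At day 7, Irf8 was at 54.7 CPM in the 10 cells with such genes and 327 CPM in the rest, and Tlr3 at 9.11 and 21.5 CPM. The transcription factor genes Irf8 and Id2, which act in that development, were at 829 and 653 CPM in the 36 cells and at 316 and 92.8 CPM in the 160. Naaa, a lysosomal hydrolase gene, was at 1203 and 103 CPM, and Tlr3, the receptor for double-stranded RNA, was at 213 and 20.9 CPM. Cd24a, which encodes a surface glycoprotein, was at 181 and 36.6 CPM. H2-Aa was at 12359 and 9327 CPM, but by library at 12573 and 13424 CPM naïve, 13818 and 7125 CPM at day 7 and 11557 and 11099 CPM at day 14. Cd74, the invariant chain that escorts MHC class II, was at 21875 and 14814 CPM. The Fc receptor gene Fcgr1, typical of macrophages, was at 51.8 and 249.6 CPM.

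**Figure D2:**
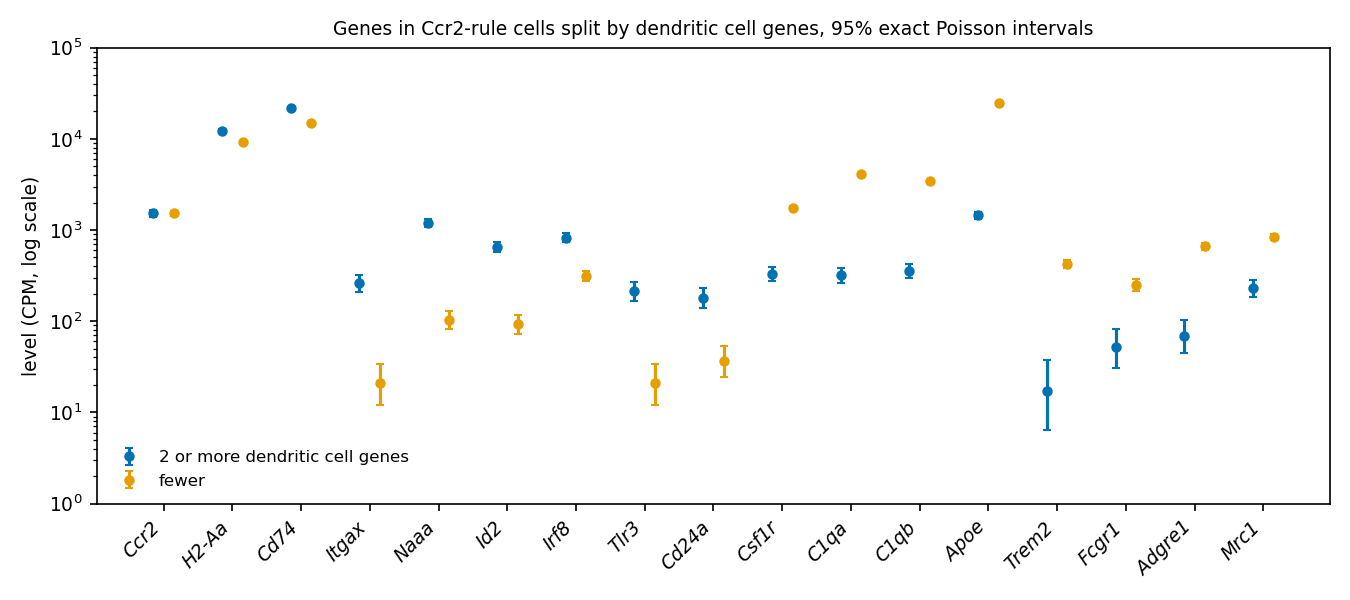
Level in CPM on a log scale, with exact 95% Poisson intervals, of the genes on the horizontal axis, summed over the 36 Ccr2-rule cells with at least 2 of 10 dendritic cell genes (blue) and over the other 160 (orange), libraries pooled. Ccr2 was at 1530.5 against 1530.4 CPM, while C1qa was at 319 against 4109 CPM and Naaa at 1203 against 103 CPM.

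The dendritic cell genes differed in kind between libraries. Xcr1, the chemokine receptor of cross-presenting dendritic cells, had 12, 0 and 60 UMIs, in 4.35%, 0% and 9.68% of Ccr2-rule cells and in 0% of Mag or Prx cells of each library. Clec9a, a receptor for dead cell remnants on the same subset, had 4, 1 and 48 UMIs. The growth factor receptor gene Flt3 was at 83.0, 18.7 and 91.6 CPM. Cd209a, a lectin gene of another dendritic subset, ran differently, at 1103, 493 and 300.4 CPM. Within the cells with at least 2 dendritic cell genes (4, 10 and 22), Irf8 was at 1257, 54.7 and 1175 CPM, Id2 at 893, 82.0 and 919.7 CPM and Naaa at 1985, 638 and 1387 CPM.

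In the naïve library several of these values, though not that of Cd209a, rested on a single Xcr1-positive cell of 8765 UMIs. It held 0 of 93 Cd209a UMIs but 12 of 12 Xcr1, 11 of 11 Tlr3, 37 of 49 Irf8, 22 of 34 Id2, 41 of 66 Naaa and 6 of 7 Flt3 UMIs of all naïve Ccr2-rule cells. Other naïve sums dominated by 1 cell were those of the calcium-binding protein genes S100a10 (61 of 85 UMIs), S100a4 (47 of 79) and S100a11 (34 of 59) and of Crip1 (94 of 151), which encodes a LIM domain protein.

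Some cells without Ccr2 carried RNA of other cell types. The 13 that entered by the low resident-type sum alone held fibroblast RNA at 40107, 589.5 and 32393 CPM and satellite glial RNA at 1074, 14148 and 16524 CPM. At least 20 glial or fibroblast UMIs were in 1 of 2, 1 of 3 and 4 of 8 of them, and the rest were at 2791, 1428 and 196 CPM of fibroblast and 930.2, 476 and 587 CPM of satellite glial genes. MHC class II genes were at 10480.3, 248 and 1025 CPM in the cells with that many such UMIs and at 33023, 18563 and 37882 CPM in the rest. Removing every Ccr2-rule cell with at least 20 glial or fibroblast UMIs left 21, 76 and 87 cells.

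Genes of cell division were low, with sums that differed between libraries. The 15 proliferation genes summed to 949, 1453 and 1909 CPM, against 676, 1167 and 726 CPM in other macrophages, with ratios to naïve of 1.53 (1.21 to 1.95) at day 7 and 2.01 (1.60 to 2.56) at day 14. Of the 3 genes compared in each comparison, none passed 2-fold, and their medians were 0.40 and 0.78 on the log2 scale against naïve and 0.36 between the injured libraries. The sum was mostly tubulin gene Tubb5 (332, 522 and 619 CPM) and histone variant gene H2afz (463, 616 and 791 CPM). Mki67, present only in cycling cells, had 0, 12 and 10 UMIs, in 0%, 6.25% and 7.53% of Ccr2-rule cells and in 0.5%, 0.667% and 0.472% of Mag or Prx cells. Top2a, which untangles replicated DNA, had 3, 21 and 55 UMIs. Of these Top2a UMIs, 3, 5 and 37 lay in the 4, 10 and 22 cells with at least 2 dendritic cell genes. At day 14 Top2a was at 178 CPM in those cells and 53.2 CPM in the rest, and at day 7 at 45.6 and 42.9 CPM.

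The comparisons of injured with naïve libraries ask what changed in these cells after nerve injury. Both share the naïve library, so their values are given side by side and not as separate evidence. Genes with a UMI in at least 20% of Ccr2-rule cells of either library were compared, on log2 ratios of CPM plus 10, and those at least 2-fold apart are called higher or lower. At day 7, 6 of 11 compared interferon response genes and 3 of 11 immediate early and heat shock genes were lower than in the naïve library, 5 of 7 genes shared with microglia were higher, and 1 of 8 MHC class II genes was lower. At day 14, 11 of 11 interferon and 6 of 11 heat shock genes were lower than naïve, while the summed levels of the microglia-like and MHC class II genes lay closer to naïve than at day 7. A gene past the 20% filter in 1 library alone could hardly differ in the other direction: in the naïve library alone these were 4 and 6 of the 11 interferon genes and 2 and 3 of the 11 heat shock genes at day 7 and day 14, and in the day 7 library alone 2 of the 7 microglia-like genes. At day 7, 1 of the 8 MHC class II genes had also passed in the naïve library alone. At day 14, 2 of the 7 microglia-like genes had passed in the day 14 library alone and 1 in the naïve library alone. The summed levels do not depend on this filter.

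At day 7, 468 of 4248 compared genes were higher (11%) and 195 lower (4.59%), and at day 14, 375 of 4034 were higher (9.3%) and 220 lower (5.45%). The median over all compared genes was 0.11 and 0.03 on the log2 scale. Among the higher genes, 372 of 468 and 314 of 375 had 3 or fewer naïve UMIs, and 42 and 43 had none. Their size is poorly known. So few UMIs lie in too few naïve cells to pass the filter, so these genes passed it in the injured library alone. Their direction was set by the filter, and nothing is read from the excess of higher over lower genes in either scaling. Of the lower genes, 21 of 195 and 18 of 220 had at least 50% of their naïve UMIs in 1 cell. Median-of-ratios scaling moved the day 14 median by 0.20, to 0.22, and 535 genes were then higher against 132 lower (80.2% of those past 2-fold, 63.0% before). In that scaling the day 14 ratios of the list sums were 0.324 for interferon response, 0.609 for heat shock, 1.44 for microglia-like and 0.998 for MHC class II genes. Relative to its median over all genes they were 0.277, 0.522, 1.24 and 0.855.

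Interferon-induced genes, which limit virus replication, had a lower summed level in both injured libraries. Of the 13 listed, 11 were compared. At day 7, 6 of 11 fell (Isg15, Ifit1, Ifit2, Ifit3, Irf7 and Oasl2) and none rose, with a median of -1.12. At day 14, 11 of 11 fell, with a median of -1.86. The list summed to 5349.7 (4867 to 5867) CPM naïve, 2661 (2518 to 2811) at day 7 and 1493 (1392 to 1599) at day 14, with ratios to naïve of 0.497 (0.446 to 0.555) and 0.279 (0.248 to 0.314).

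Irf7, the transcription factor that amplifies the interferon response, was at 273, 51.8 and 58.6 CPM (ratios to naïve 0.190, 0.103 to 0.350, and 0.215, 0.122 to 0.384). Oasl2, an antiviral gene, was at 439, 114 and 114 CPM (0.260 and 0.259). Ifit3, whose product binds foreign RNA complexes, was at 189.8, 45.6 and 23.8 CPM. Ifitm3, which blocks virus entry, was at 1613, 804 and 509 CPM, and Ifi27l2a was at 1186, 785 and 289 CPM. For Ifit1, 6 of the 12 naïve UMIs lay in 1 cell.

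The interferon result did not rest on 1 cell but its size varied among cells. The highest naïve cell held 85 of 451 interferon UMIs, and leaving out the highest cell of each library gave 4487, 2607 and 1415 CPM. Cells with Ccr2 and a resident-type sum of 3 or more were at 3632, 2895 and 1485 CPM, and those with Ccr2 and a lower sum at 5787, 1656 and 1188 CPM. The 2 naïve cells without Ccr2 held 91 of the 451 UMIs. With cells chosen by the low resident-type sum alone, the day 7 ratio was 0.231, and without cells holding dendritic cell genes it was 0.343, while with Ccr2-positive cells alone it was 0.586 and without cells holding at least 20 glial or fibroblast UMIs 0.540. Other macrophages had the same direction, with sums of 6809.5, 3814 and 1504.5 CPM and ratios of 0.560 (0.515 to 0.609) and 0.221 (0.201 to 0.243). In Mag or Prx cells, which are not macrophages, the list summed to 942, 437 and 397 CPM, and the part of this difference in the result was not tested.

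Immediate early and heat shock genes respond to stress, tissue dissociation included. Of 17 listed, 11 were compared, and 3 fell at day 7 (Atf3, Hspa1b and Dnajb1) and 6 at day 14 (those and Hspa1a, Hspa8 and Hsp90aa1), with medians of -0.76 and -1.11 and none higher. They summed to 5267 (4788 to 5780), 3419.6 (3257 to 3589) and 2766 (2628 to 2909) CPM, with ratios to naïve of 0.649 (0.584 to 0.723) and 0.525 (0.472 to 0.585), and in other macrophages of 0.634 and 0.551. In Mag or Prx cells they summed to 3436, 2787 and 2936 CPM. The chaperone gene Hspa8 was at 2645, 1559 and 1039 CPM and the inducible Hspa1b at 403, 164 and 137 CPM. Fos and Jun, early response transcription factors, did not pass 2-fold, at 142, 102 and 134 CPM and at 332, 336 and 214 CPM. These genes moved with the interferon list, and their part in other changes was not tested.

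Genes typical of microglia, the macrophages of the central nervous system, had a higher summed level at day 7. Of 10 listed, 7 were compared and 5 rose at day 7 (Tmem119, Gpr34, Fcrls and Cx3cr1 among them), with a median of 1.02. At day 14, Tmem119 was higher and the ADP receptor gene P2ry12 was lower, with a median of 0.21. In both comparisons Tmem119 had passed the filter in the injured library alone, so its calls were set by the filter. The list summed to 1447 (1202 to 1728), 3637 (3469 to 3812) and 1802 (1691 to 1919) CPM, with ratios of 2.51 (2.09 to 3.05) and 1.25 (1.03 to 1.52). In other macrophages the sums were 3364, 4206 and 3855 CPM, with ratios of 1.25 (1.12 to 1.40) and 1.15 (1.03 to 1.28). Sall1 and Slc2a5 were at 0 in Ccr2-rule cells. With the low resident-type sum alone, the day 14 ratio was 0.748.

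Tmem119, which encodes a microglial membrane protein, was at 47.4, 315 and 114 CPM (day 7 ratio 6.64, 2.54 to 24.7). Cx3cr1, the receptor for the neuronal chemokine fractalkine, was at 320.3, 984 and 551 CPM (3.07, 2.09 to 4.71), whereas other macrophages were at 887, 803 and 1062 CPM. Fcrls and Gpr34 were at 510.1, 1047 and 383 CPM and at 94.9, 203 and 112 CPM. Within cells that had Ccr2 and 3 or more resident-type UMIs the list was at 1805, 3925 and 2609 CPM, and with fewer resident-type UMIs at 1105, 2550.0 and 706 CPM.

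**Figure D3:**
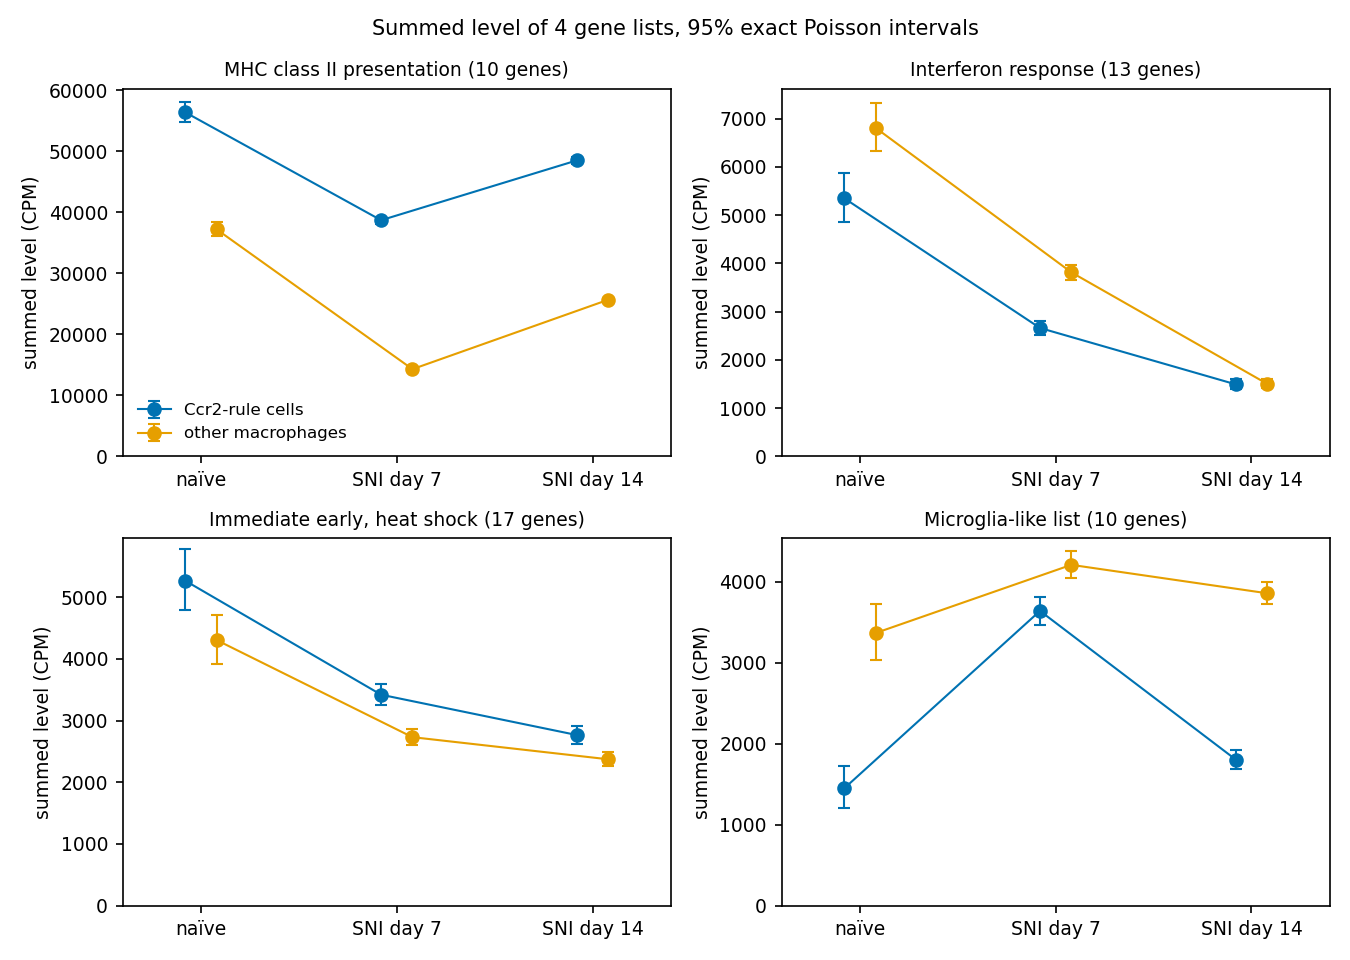
Summed level in CPM of 4 gene lists by library in Ccr2-rule cells (blue) and other macrophages (orange), with exact 95% Poisson intervals and axes that start at 0. Interferon response genes went from 5349.7 to 1493 CPM and microglia-like genes from 1447 to 3637 and 1802 CPM in Ccr2-rule cells.

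MHC class II genes stayed abundant and were lower at day 7 by less than 2-fold. Of 10 listed, 8 were compared, and only H2-Ob, which tunes peptide loading, was lower at day 7 (9, 20 and 38 UMIs, 107, 41.5 and 69.6 CPM). In that comparison 1 of the 8 had passed the 20% filter in the naïve library alone, so nothing is read from the single call. Medians were -0.55 at day 7 and -0.23 at day 14, where none passed 2-fold. The sums were 56403 (54811 to 58029), 38719 (38165 to 39278) and 48528 (47945 to 49116) CPM. Their ratios to naïve were 0.686 (0.665 to 0.709) and 0.860 (0.834 to 0.888), against 0.384 (0.370 to 0.399) and 0.690 (0.667 to 0.714) in other macrophages. Median-of-ratios scaling brought the day 14 ratio to 0.998, and with the low resident-type sum alone the ratios were 0.742 at day 7 and 0.658 at day 14, so the order of the injured libraries turned. Ciita, the coactivator that switches these genes on, was at 403, 282 and 403 CPM against 210.2, 92.2 and 119 CPM in other macrophages. Per cell, H2-Aa had medians of 133, 92.4 and 127 UMIs per 10000.

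Lipid and lysosomal genes changed little. Of 10 compared lipid-handling and Trem2-linked genes, Trem2 and the protease gene Ctsd rose at day 7 and none changed at day 14, with medians of 0.24 and 0.05. Trem2 had day 7 and day 14 ratios of 2.81 (1.57 to 5.53) and 1.62 (0.896 to 3.22). The sum had ratios of 1.29 (1.23 to 1.36) and 0.979 (0.931 to 1.03); the day 7 ratio was 0.874 where at least 4 of the 6 macrophage genes were required, and the day 14 ratio ran from 0.788 to 1.14 across the settings tried, on either side of 1. Of 14 lysosomal genes, Ctsd (676, 1409 and 982 CPM) and the protease gene Lgmn (451, 1204 and 719.8 CPM) rose at day 7 and none changed at day 14, with medians of 0.23 and 0.04. Their sum had ratios of 1.17 and 1.03, the latter from 0.683 to 1.19 across the settings tried.

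Among phagocytosis receptors, 13 were compared at day 7 and 12 at day 14. Mertk, which binds dying cells, rose at day 7 (47.4, 116 and 58.6 CPM), as did the scavenger receptor gene Msr1 (1 naïve UMI, ratio 5.59, 0.934 to 228). Mertk and Msr1 had passed the filter in the day 7 library alone, so their calls were set by the filter. The sialic acid receptor gene Siglec1 fell in both (142, 41.5 and 23.8 CPM) and the Fc receptor gene Fcgr4 at day 14 (178, 93.3 and 69.6 CPM), with list medians of 0.02 and -0.39. In both comparisons Siglec1 had passed the filter in the naïve library alone, which set its calls. Of 7 complement genes, 2 rose at day 7, C5ar1, the C5a receptor gene, among them, and none changed at day 14 (medians 0.38 and -0.19). C5ar1 was at 83.0, 182 and 84.3 CPM.

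Of 5 compared chemokine genes, Ccl8, a ligand of several CC receptors, rose at day 7, and none of 3 changed at day 14, with medians of 0.51 and -0.11. Ccl8 was at 35.6 (3 UMIs), 298 and 44.0 CPM, a day 7 ratio of 8.39 (2.81 to 41.1), and in other macrophages at 174, 2462 and 624 CPM. The chemokine sum had ratios of 1.16 (0.959 to 1.41) and 0.744 (0.613 to 0.909). Its direction was not stable: at day 7 it was 0.884 with the low resident-type sum alone, 0.708 with a sum limit of 5 and 0.969 without cells holding dendritic cell genes, and at day 14 it was 1.13 with at least 4 macrophage genes and 0.437 with a sum limit of 5. Of 5 chemokine receptor genes, Cx3cr1 and Ccr1 (3 naïve UMIs, ratio 3.90, 1.28 to 19.4) were higher at day 7. Cxcr4, the Cxcl12 receptor, was higher at day 14 (47.4, 37.3 and 123 CPM). Ccl8 and Ccr1 at day 7 and Cxcr4 at day 14 had passed the filter in the injured library alone. The calls of these genes against naïve were set by the filter. Without Ccr2, a gene of the rule, the medians of the other 4 were 0.97 and 0.45.

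None of 3 compared cytokine and growth factor genes passed 2-fold (medians -0.16 and -0.21), and Tgfb1 was at 178, 153 and 152 CPM. Of 5 nitric oxide and redox enzyme genes, the heme oxygenase gene Hmox1 (47.4, 108 and 65.9 CPM) and Sod2 (2 naïve UMIs, ratio 2.53, 0.641 to 21.9) rose at day 7 (median 0.47). None of 4 changed at day 14 (median 0.18), and Nos2, the inducible nitric oxide synthase gene, had no UMI in Ccr2-rule cells of any library. The oxidase gene Cybb was at 510.1, 709 and 733 CPM. Hmox1 and Sod2 had passed the filter in the day 7 library alone, so their calls were set by the filter.

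Of 11 lineage transcription factor genes, 2 rose at day 7, Maf, which helps to maintain macrophage identity, among them, and Irf8 and Id2 fell, with a median of -0.30. At day 14, 1 was higher and none lower (median 0.05). Irf8 was at 581, 265 and 647 CPM and Id2 at 403, 66.3 and 425 CPM, and most of the naïve UMIs of each came from the single Xcr1-positive cell. Without that cell, naïve Irf8 was at 159 CPM and the day 7 difference turned to 0.71 on the log2 scale, while that of Id2 was -1.15. Of 5 resident-type genes not used by the rule, Maf rose and the carbonyl reductase gene Cbr2 fell at day 7 (median 0.19), and Cbr2 fell at day 14 (median -0.51). The sums of the whole list, 3879, 4410.3 and 2522 CPM, partly follow from the rule, and 120 of 327 naïve UMIs were in 1 cell.

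Genes of other cell types also passed 2-fold. All 3 compared satellite glial genes, Fabp7 and the matrix gene Sparc among them, were higher in both injured libraries (medians 2.11 and 3.21), as was Pmp22 among 3 Schwann cell genes (medians 0.91 and 0.997). Apod, the only fibroblast gene compared at day 7, was lower, and Dcn was higher at day 14. Uchl1 was the only neuronal gene compared at day 7 and Tubb3 at day 14, and each was higher, from 0 and 1 naïve UMIs (the day 7 median was 2.58, or 0.48 with Uchl1 at its bound). No endothelial or mural gene was compared. The dendritic cell gene Cd209a, 1 of 2 compared, was lower in both (ratios 0.447 and 0.272). Of these genes, Uchl1, Tubb3, Dcn and, in each comparison, 1 of the 3 satellite glial genes had passed the 20% filter in the injured library alone. Cd209a and, at day 7, Apod had passed it in the naïve library alone. The calls of all these genes were set by the filter and support nothing.

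The genes named by size included, among those higher in both injured libraries, 10 with no naïve UMI, for which only a lower bound can be given. Without a naïve UMI, these genes could pass the filter only in the injured libraries. Their direction was therefore set by the filter and supports nothing. Dnase2a, which digests DNA in lysosomes, was at 70.5 and 84.3 CPM, at least 1.98- and 2.37-fold higher. Bounds for the other 9 (Zbtb18, Prmt1, Adss, Snx9, Ubald2, Arrdc1, Kif21b, Slc35a5 and Lman1) ran from 1.28 for Lman1 at day 7 to 2.11 for Ubald2 at day 14. The 10 lower in both included Irf7, Oasl2 and Ifit3 of the interferon list. Iigp1 and Gm4951, interferon-inducible but not in that list, were also among them. The 10 were picked by size, so nothing is read from this number. The GTPase gene Iigp1 was at 119, 26.9 and 18.3 CPM. Ly6a, a surface antigen gene also induced by interferon, was at 273, 37.3 and 31.1 CPM (0.137 and 0.114). Sult1a1, a sulfotransferase gene, was at 154, 37.3 and 34.8 CPM, and S100a10 was at 1008, 209 and 251 CPM with most naïve UMIs in 1 cell. Rnf113a2 had 7, 1 and 2 UMIs and the globin gene Hba-a2 had 7, 5 and 4. Iigp1, Rnf113a2 and Hba-a2 in both comparisons, and Ifit3 and Ly6a at day 14, had passed the filter in the naïve library alone. The direction of these calls was set by the filter and supports nothing.

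The comparison of SNI day 14 with SNI day 7 asks how the cells differed within the injury course, and it had the deepest profiles. At day 14, the dendritic cell regulators Irf8 and Id2 were higher, and the chemokine genes Ccl8 and Ccl12, the receptor gene Ccr1 and 2 of 7 compared microglia-like genes were lower. Ccl8, Ccl12 and Ccr1 had passed the filter in the day 7 library alone, so the direction of their calls was set by the filter. Of 4430 compared genes, 55 were higher (1.24%) and 66 lower (1.49%), with an all-genes median of -0.07. Median-of-ratios scaling gave 81 higher and 51 lower (61.4% higher, 45.5% before).

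Tlr3 went from 18.7 to 128 CPM (6.87, 3.42 to 15.7) and Id2 from 66.3 to 425 CPM (6.41, 4.41 to 9.59). Cd24a went from 24.9 to 130.0 CPM (5.23, 2.81 to 10.6), and Itgb7, an integrin gene of gut-homing leukocytes, from 35.2 to 137 CPM (3.90, 2.28 to 7.04), with no UMI in other macrophages. Tlr3 and Cd24a had passed the filter in the day 14 library alone, so the direction of their calls was set by the filter. Irf8, among the lineage transcription factor genes (2 of 11 higher, none lower, median -0.18), went from 265 to 647 CPM (2.44, 1.99 to 3.01). At day 14, UMIs of Tlr3, Id2, Cd24a and Irf8 lay mainly in the 22 of 93 cells with at least 2 dendritic cell genes, where Tlr3 was at 299 CPM against 23.6 CPM in the rest, Id2 at 919.7 against 121 CPM, Cd24a at 269.7 against 44.3 CPM and Irf8 at 1175 against 322 CPM. At day 7, in 10 of 80 cells, Id2 and Cd24a were at 82.0 and 27.3 CPM against 61.7 and 24.1 CPM in the rest. Requiring at least 4 macrophage genes turned the Tlr3 difference to -0.14 on the log2 scale. Apod and the matrix proteoglycan gene Dcn were also higher (ratios 25 and 24.1), with 947 of 1471 Apod UMIs at day 14 in 1 cell.

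Ccl8 fell from 298 to 44.0 CPM (0.147, 0.0914 to 0.228) and Ccl12, a monocyte attractant that binds Ccr2, from 292 to 71.4 CPM (0.244, 0.167 to 0.351). In other macrophages Ccl8 went from 2462 to 624 CPM and Ccl12 from 1339 to 446 CPM. With the low resident-type sum alone the Ccl12 difference was 0.47 on the log2 scale. Ccr1, a receptor for inflammatory chemokines, fell from 139 to 23.8 CPM (0.171, 0.0868 to 0.313). Ltc4s, which makes leukotriene C4, fell from 89.1 to 12.8 CPM (0.144), and Bloc1s1 and Nt5dc2 had ratios of 0.204 and 0.221. Ccl8, Ccl12, Ccr1 and Ltc4s had passed the filter in the day 7 library alone, which set the direction of their calls.

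By list, microglia-like genes had 2 of 7 lower (Tmem119 and Fcrls), a median of -0.83 and a summed ratio of 0.496 (0.458 to 0.536), or 0.323 with the low resident-type sum alone. Other macrophages had a summed ratio of 0.917 (0.868 to 0.968). Interferon genes had 2 of 7 lower (Ifi27l2a and Rtp4), a median of -0.65 and a summed ratio of 0.561 (0.513 to 0.613), or 0.895 with the low resident-type sum alone, against 0.394 (0.367 to 0.424) in other macrophages. MHC class II genes had 0 of 8 past 2-fold, a median of 0.37 and a summed ratio of 1.25 (1.23 to 1.28), against 1.80 (1.75 to 1.84), and 0.886 with the low resident-type sum alone. At day 7 alone, 2 of the 7 interferon genes and 1 of the 7 microglia-like genes had passed the filter, and at day 14 alone 1 of the 8 MHC class II genes. The counts and medians of these lists depend on the filter, and the summed ratios do not. Chemokine genes had 2 of 5 lower, Ccl8 and Ccl12, both past the filter at day 7 alone, with a median of -0.42. Of 5 chemokine receptor genes, Ccr2 left out, Cxcr4 was higher and Ccr1, past the filter at day 7 alone, was lower (median -0.58).

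C5ar1 was the only complement gene of 7 to fall (median -0.43), and Cbr2 and Gas6, a bridge between dying cells and phagocytes, fell among the 5 resident-type genes not used by the rule (median -0.70). Of 3 satellite glial genes, 2 rose, including Fabp7 (median 1.10), and Dcn and Apod, the 2 fibroblast genes compared, had passed the filter at day 14 alone, which set their direction. No gene passed 2-fold among 9 heat shock (median -0.24), 10 lipid (-0.18), 14 lysosomal (-0.25), 12 phagocytosis (-0.44), 5 redox (-0.44), 3 cytokine (-0.01), 3 Schwann cell (0.08), 2 neuronal (-0.20) or 1 dendritic cell gene (0.38). The lysosomal summed ratio, 0.881, was 1.08 with at least 4 macrophage genes.

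Ccr2-rule cells were also compared with other macrophages of the same library. The rule used the same cells and counts, so these differences describe how the cells were divided and nothing is read from their number. Of 2570 genes with a UMI in at least 20% of either group in every library, 30 were at least 2-fold higher in all 3 libraries (1.17%) and 57 lower (2.22%), with all-genes medians of -0.00, -0.05 and -0.10.

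Lsp1, a leukocyte actin-binding protein gene, was at 652, 339.9 and 527 CPM against 18.3 (2 UMIs), 17.1 and 15.8 CPM. The actin regulator gene Tmsb10 was at 1922, 849.7 and 1381 CPM, 16.2-, 9.95- and 11.8-fold higher. Crip1 was at 1791, 875 and 1165 CPM against 119, 149 and 92.4 CPM. Plbd1, a phospholipase gene, was 3.71-, 6.94- and 8.52-fold higher, and Fxyd5, a regulator of cell adhesion, 3.78-, 3.83- and 3.80-fold higher. S100a4 was at 937, 537 and 308 CPM, with no UMI in other naïve macrophages and 6.83 and 33.0 CPM in the injured libraries.

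Lgals3, a galectin gene of activated macrophages, was at 498, 249 and 412 CPM against 9.14 (1 UMI), 8.54 and 123 CPM. S100a6 was 12.4-, 8.54- and 2.57-fold higher, and Naaa was at 783, 234 and 582 CPM against 18.3 (2 UMIs), 92.2 and 46.2 CPM. The adhesion genes Alcam and Emb, the secreted protein gene Olfm1 and S100a11, Cnn2 and Anxa2 completed the 15 genes named as higher.

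On the lower side, Cd163, the hemoglobin scavenger receptor gene, was at 119, 133 and 80.6 CPM against 959.7, 815 and 546 CPM. Dab2, an endocytic adaptor gene, was at 901, 1005 and 782 CPM against 2797, 2901 and 2291 CPM. Ccl12 was at 0.0946, 0.218 and 0.160 of the level in other macrophages, and Gas6 at 0.220, 0.228 and 0.145. Cd38, an NAD-consuming ectoenzyme gene, was at 0.137 (2 naïve UMIs), 0.161 and 0.111. Ltc4s was also named, as were Reps2, Adam33, Stard8, Slc15a2, Rhobtb1, Ddx60, Clec4n and Maoa.

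By list, 1 of 7 MHC class II genes (H2-DMb1, a peptide exchange catalyst) was at least 2-fold higher in every library, with medians of 0.76, 1.33 and 1.001. All 5 resident-type genes that the rule did not use and that could be compared were lower (Cd163, Cbr2, Maf, Gas6 and Igfbp4; medians -2.08, -2.07 and -2.62). Complement had 3 of 6 lower (C4b and C5ar1 among them; -1.55, -1.06 and -1.35) and microglia-like 1 of 5 (Fcrls; -0.95, -0.19 and -1.06). Lysosomal genes had 2 of 14 lower, Ctsb and Ctsl, and lipid-handling genes had Lgals3 higher and Ctsb lower of 9. Msr1 was lower of 12 phagocytosis genes, Ccl12 of 4 chemokines, Igf1 of 2 cytokine and growth factor genes, and Maf of 11 transcription factors. No gene passed in all 3 libraries among 5 interferon, 7 heat shock, 2 proliferation, 3 redox and 3 chemokine receptor genes.

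The lipid carrier gene Apoe was at 15835.5, 20391.5 and 14969.5 CPM against 34623, 30452.5 and 29818 CPM. Psap, the precursor of sphingolipid activator proteins, ran the other way, at 3642, 2719 and 3612 CPM against 1654, 1618 and 2468 CPM. The growth factor gene Igf1 was at 154, 137 and 123 CPM against 375, 552 and 521 CPM.

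Promoters of the MHC class II and interferon genes are shown because the summed levels of these lists differed between libraries. Sequences are from RefSeq (GRCm38.p6), the 250 bases before each gene start. The core of the interferon-stimulated response element (GAAA, any 2 bases and GAAA again, or TTTC, any 2 bases and TTTC on the other strand) was in 5 of the 9 interferon genes with a promoter sequence (55.6%; 13 listed) and in 936 of 27025 promoters (3.46%). Those of Ifit2, Ifitm3, Irf7 and Oasl2 did not hold these letters. A match is a description. Matches can overlap, and capitals mark the run of overlapping matches farthest from the start (3 in Isg15, 2 in Bst2 and 1 in the others). Ifit3 and Ifit1 each held 1 further match that is not shown. The run ended 57 bases before the start in Isg15 (chr4:156200871-156200900, minus strand), 115 in Bst2 (chr8:71537580-71537609, minus), 111 in Rsad2 (chr12:26456553-26456582, minus), 147 in Ifit3 (chr19:34583363-34583392, plus) and 95 in Ifit1 (chr19:34640775-34640804, plus).
Isg15: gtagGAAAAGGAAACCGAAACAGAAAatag
Bst2: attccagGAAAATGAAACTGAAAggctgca
Rsad2: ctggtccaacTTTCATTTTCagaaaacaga
Ifit3: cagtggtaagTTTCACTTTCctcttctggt
Ifit1: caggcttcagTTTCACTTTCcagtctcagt

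The Y box core of MHC class II promoters, GATTGG or CCAATC on the other strand, was in 7 of the 7 listed genes with a promoter sequence (10 listed) and in 4486 of 27025 promoters (16.6%). In these 7 the match, in capitals, was GATTGG and ended 39 bases before the start in H2-Oa (chr17:34092325-34092350, plus strand), 194 in H2-DMa (chr17:34125309-34125334, plus), 86 in H2-DMb2 (chr17:34145148-34145173, plus), 57 in H2-DMb1 (chr17:34153119-34153144, plus), 53 in H2-Ob (chr17:34238837-34238862, plus), 44 in H2-Aa (chr17:34287857-34287882, minus) and 55 in H2-Eb1 (chr17:34305797-34305822, plus), whose promoter held 1 further match nearer the start.
H2-Oa: gaactgctctGATTGGctgcttaccg
H2-DMa: tctaggtctgGATTGGgaccaaagaa
H2-DMb2: gtcacttagtGATTGGactgacttaa
H2-DMb1: ttcactcagtGATTGGtctgacctgc
H2-Ob: cttcgctcttGATTGGttaacagtgt
H2-Aa: agaattttctGATTGGttctggcgag
H2-Eb1: ctttgatgctGATTGGctcccagcac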

How the data were processed

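Cells of whole mouse DRGs were profiled with 10x Chromium v3 3′ chemistry in 3 libraries, 1 per group. The authors deposited raw UMI counts per gene and barcode for 31053 genes; their processing notes name Cell Ranger 3.0.2 and mm10, and whether libraries were downsampled together is not given in the sources used here. Group labels came from the sample titles. Barcodes with 500 or more genes and no more than 20% of UMIs from mitochondrial genes were used, and macrophages and Ccr2-rule cells were chosen by the counts stated above, with at most 1 UMI for each of Pecam1 plus Cdh5, Mag plus Prx and Snap25 plus Rbfox3, and at most 5 of S100a9. UMIs were summed over cells per library, scaled to CPM and compared as log2 ratios of CPM plus 10, for genes with a UMI in at least 20% of cells of either library. With 1 library per group no test was made.

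Of 31053 gene identifiers, 30934 were in GENCODE vM21. The 30 gene lists cover MHC class II, classical and nonclassical monocyte, dendritic cell, resident-type, microglia-like, lipid, lysosomal, phagocytosis, complement, chemokine, chemokine receptor, cytokine, redox, interferon, proliferation, transcription factor, immediate early and heat shock, and clock genes, genes of other cell types, and genes of sex. The phagocytosis receptor Clec7a was not among the symbols of the files. The members and lists were chosen with earlier results of these data known. Named genes were the 10 higher and 10 lower in both injured libraries and the 6 higher and 6 lower at day 14 than day 7 with the largest log2 ratios, and the 15 higher and 15 lower than in other macrophages in every library. Some genes of the lists and rules are not reported here. Others of the lists were named freely, and genes picked from them for the split by dendritic cell genes were chosen after their values were seen. The 18 alternatives were of these kinds (cell filters, doublet calls, macrophage and sum limits, either clause alone, removal of cells with other types' genes, scalings, pseudocounts and filters on low values), with 2 added after seeing the data. Calculations used python 3.11.15, numpy 2.4.6, scipy 1.17.1, pandas 2.3.3, scanpy 1.11.5 (Scrublet, expected rate 5%) and matplotlib 3.10.9, and the comparison code was tested on simulated data. Thinned values are means of 20 draws.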

Additional observations from a re-analysis of the deposited data

How the results depend on the processing

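No paired analysis was possible because each group had 1 library. Across 20 alternative settings (2 of them, without cells holding at least 20 glial or fibroblast UMIs and without the naïve Xcr1-positive cell, chosen after seeing the data), 63 of 84 shares and counts stayed within their interval or within 1.5 times. Of 988 ratios of named genes, 917 stayed within their counting interval and 69 moved without changing direction. The ratios among these 988 that changed direction were Tlr3 at day 14 against day 7, -0.14 with at least 4 of the 6 macrophage genes, and Ccl12 in the same comparison, 0.47 with the resident-type sum clause alone. The cause was not tested. Ratios not among them also turned without the naïve Xcr1-positive cell, such as Irf8 at day 7 against naïve, to 0.71 on the log2 scale. That clause alone left 14, 17 and 32 cells, shares of 20%, 8.02% and 11.9% of macrophages, and 1514, 1518 and 1149 genes past 2-fold (day 7 and day 14 against naïve, day 14 against day 7), where the reported counts were 663, 595 and 121. With 1000 or more genes and no more than 10% of UMIs from mitochondrial genes, 15, 48 and 60 cells gave 1163, 1068 and 211 genes. At least 4 macrophage genes gave 957 at day 14 against naïve, and no cell filter gave 70 at day 14 against day 7. By construction, a pseudocount of 1 gave 223 at day 14 against day 7, a pseudocount of 50 gave 121, 125 and 21, a UMI in at least 10% of cells gave 1386, 1286 and 271, and no filter on low values gave 2656, 2624 and 577. Except for the pseudocounts and filters on low values, the cause of these moves was not tested. A naïve gene at the median of those compared had 7 UMIs.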

Other observations

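The summed level of clock genes was low in these cells. The 13 genes summed to 154, 311 and 332 CPM, against 311, 413 and 614 CPM in other macrophages. The 2 genes compared at day 7 and the 3 at day 14 passed the 20% filter in the injured library alone, so their direction was set by the filter and their counts support nothing. At day 7, 2 of 2 were higher (Bhlhe41, a repressor, and the core activator Clock; median 1.52), from 1 and 3 naïve UMIs. At day 14, 2 of 3 were higher (the nuclear receptor gene Nr1d2 and the period gene Per3, with 2 and 0 naïve UMIs), with a median of 1.02, or 0.67 with Per3 at its bound. Between the injured libraries, Nr1d2 was higher and Bhlhe41 lower at day 14 of 4 compared (median 0.01). Mag or Prx cells had 523, 711 and 701 CPM of the same list. The hour of dissection was not used here.

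The Y-linked genes Ddx3y and Eif2s3y were detected in all 3 libraries and Xist had no UMI in Ccr2-rule cells; the labels give male mice. Of the 5 sex genes, 4 had a UMI, summing to 178, 271.5 and 267 CPM, and Ddx3y and Eif2s3y passed 2-fold in both injured libraries from 4 and 1 naïve UMIs, where 3 of 4 and 2 of 3 compared genes had passed the filter in the injured library alone (2 of 4 and 2 of 3 compared higher, medians 0.45 and 1.43; 0 of 4 between the injured libraries, median -0.05). Red blood cell genes summed to 189.8, 56.0 and 40.3 CPM, and Hba-a2, the only gene of the 4 compared, was lower in both (medians -2.19 and -2.42), but it had passed the filter in the naïve library alone. A few cells carried very high levels of single genes. Ccl17, a chemokine of dendritic cells, had 0, 151 and 11 UMIs, and the day 7 UMIs lay in 3 cells with 93 of them in 1. Retnla, a gene of alternatively activated macrophages, had 0, 52 and 73 UMIs, in 2 cells at day 7 and 1 at day 14. These genes were singled out after their values were seen.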
